A study of Mus musculus with 38 samples.

Results

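The 6 genes described here are expressed in granulocytes and macrophages, the phagocytes of the innate immune system. They were Ctsg and S100a9 of neutrophils, Epx of eosinophils, Lyz2 and C1qa of macrophages, and Tyrobp, an adaptor protein of myeloid and natural killer cells. They were chosen by name, as the rows of the array table whose RefSeq accession belongs to these genes. Each gene had 1 probe, spotted 1 time, so the members are 6 of 21618 distinct probes and 6 of the 6518 probes that could be given a gene symbol.

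Granulocytes and monocytes arise in the bone marrow, circulate for a short time and enter tissues, and the mouse spleen also holds a reserve of monocytes and makes some granulocytes itself. Neutrophils and eosinophils store enzymes and toxic proteins in granules that are filled while the cells mature, so granule messages are strongest in immature cells. Macrophages of the splenic red pulp engulf worn red blood cells, and macrophages at the margin of the white pulp take up particles and apoptotic cells from the blood.

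The study asked how the genetic background of the mouse affects the response of the spleen to a low dose of ionizing radiation. Male mice of 6 inbred strains were given 10 rad of X-rays (irradiated) or a sham exposure, and the spleen was taken 3.5 hr later. The labels give an age of 10 to 14 wk (the methods give a younger range), and no allele, transgene or further treatment is named for either group. Each 2-colour array held the RNA of 1 irradiated and 1 sham mouse of the same strain, labelled with the dyes Cy5 and Cy3, and each pair of mice was repeated with the dyes exchanged. There were 8 arrays each of A/J, B6.C and BalbxJ, 6 of C3H, and 4 each of BI6Jx and DBA/2J, and Cy5 marked the irradiated RNA on 19 arrays, Cy3 on 19. The paper calls BalbxJ, C3H and BI6Jx by the names Balb/C, C3H/HeJ and C57Bl6/J.

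The deposited values are signed scores, 1 for each spot and array, that set both dyes against each other. Nothing in the sources used here states their log base, scale, centring or dye direction, and no fold change was computed. The median of an array ranged from -3.16 to 3.95, and each array was therefore centred on its own median. On arrays with irradiated RNA in Cy3 the sign was turned. If the scores run as Cy5 over Cy3, a positive turned value means that irradiated mice gave more signal, and if they run as Cy3 over Cy5, that they gave less. The sides are called positive and negative below for this reason. Before turning, the means of both orientations correlated across the 14513 probes tested (r = 0.635, over probes, which are not independent). The direction of 3 arrays was not settled, because they correlated under -0.3 with several arrays of their own orientation: array 97 of BI6Jx did so with 8, and in B6.C array 50 did so with 4 and array 53 with 3.

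Spots that were dim or of poor quality had been removed from the table, and an array held values for 10941 to 19860 probes. Epx and Tyrobp had a value on all 38 arrays, which 13.1% of probes reached. S100a9 and C1qa had a value on 36 arrays, Lyz2 on 35 and Ctsg on 31, against a median of 32 arrays over all probes. All 6 members passed the filter for testing, as did 67.1% of all probes. A probe passed if it had values on 19 arrays or more and each strain had values in both orientations, whatever their size. A score of 2 dyes gives no level, so the spleen label could not be checked by the abundance of its markers. Passing the filter did not check it either. On the array, 10 of the 11 B cell markers and 11 of the 19 T cell and natural killer cell markers passed, and so did 16 of 18 pancreas markers.

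The sequence at the start site is shown for the members that held a myeloid motif, and whether it bears on their values was not tested. PU.1 and C/EBP proteins are transcription factors that direct the development of macrophages and granulocytes. The letters AGGAAGT (PU.1) and TTGCNNAA (C/EBP) were searched on both strands from 250 bases before to 50 bases after the start, and no match of one overlapped a match of the other. Of 32851 mouse promoters of that length, 3072 (9.35%) held the PU.1 letters and 3547 (10.8%) held the C/EBP letters. Among the 4 members matched to a promoter entry, Ctsg and Lyz2 held the PU.1 letters, S100a9 held the C/EBP letters and Epx held neither. A match is a description of these letters and not a measured binding site. The sequences are from RefSeq, build GRCm38.p6, 5′ to 3′ along each gene, all on the minus strand, with the matching letters in capitals.
Ctsg, chr14:56102525-56102824, PU.1 letters starting 206 bases before the start site: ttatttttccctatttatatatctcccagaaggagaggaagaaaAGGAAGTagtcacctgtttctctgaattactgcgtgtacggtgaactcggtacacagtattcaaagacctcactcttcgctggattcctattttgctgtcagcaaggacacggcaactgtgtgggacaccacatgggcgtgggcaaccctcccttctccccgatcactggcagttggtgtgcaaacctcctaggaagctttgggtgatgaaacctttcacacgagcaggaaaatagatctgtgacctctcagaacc
Lyz2, chr10:117282223-117282522, PU.1 letters on the opposite strand starting 100 bases before the start site: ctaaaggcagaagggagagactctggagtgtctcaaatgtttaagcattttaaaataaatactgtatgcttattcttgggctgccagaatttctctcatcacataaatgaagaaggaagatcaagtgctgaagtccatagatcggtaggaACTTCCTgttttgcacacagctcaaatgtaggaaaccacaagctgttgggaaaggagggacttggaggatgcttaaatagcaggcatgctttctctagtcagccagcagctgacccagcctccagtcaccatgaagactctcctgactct
S100a9, chr3:90695672-90695971, C/EBP letters starting 236 bases before the start site: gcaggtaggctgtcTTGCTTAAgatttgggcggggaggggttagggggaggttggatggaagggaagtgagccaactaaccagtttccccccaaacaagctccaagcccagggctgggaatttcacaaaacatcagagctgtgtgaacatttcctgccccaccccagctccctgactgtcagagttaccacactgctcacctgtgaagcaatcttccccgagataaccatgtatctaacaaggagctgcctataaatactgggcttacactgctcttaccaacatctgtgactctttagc

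The response of a gene was measured in each strain as the mean of its arrays with irradiated RNA in Cy5 and its turned arrays with irradiated RNA in Cy3, with equal weight for both orientations, so that a difference between the dyes cancels. Averaged over the 6 strains, the response lay on the positive side for 6 of 6 members, between 0.343 and 0.523 with a median of 0.374. Over all 14513 probes the median response was -0.00675, 48.7% of probes were positive, and the 5th and 95th percentiles were -0.348 and 0.441. No member passed after adjustment (limma on 6 strain values, Benjamini-Hochberg over all probes), and neither did any probe (0%). At an unadjusted p under 0.05, 1 of the 6 members passed, S100a9 on the positive side, beside 8.21% of all probes on either side and 4.27% on the positive side. That Ctsg and S100a9 lie far on the positive side was known when the members were chosen and is no independent evidence. Since whole spleen was measured, a change in the number of cells of a type and a change in the RNA per cell cannot be told apart.

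S100a9 encodes a calcium-binding protein that, paired with S100a8, fills much of the cytosol of neutrophils. On the 19 arrays with irradiated RNA in Cy5 its values ran from -0.716 to 3.80 with a median of 0.899, and 17 were positive. On the 17 arrays with irradiated RNA in Cy3 they ran from -2.06 to 3.91 with a median of -0.103, and 7 were positive. The orientations thus overlapped widely. The strain values were 0.0189 in A/J, 0.441 in B6.C, 0.393 in BalbxJ, 1.24 in BI6Jx, 0.538 in C3H and 0.503 in DBA/2J. All 6 lay on the positive side, which held for 1 of the 6 members and for 1.47% of all probes. It did not hold without single arrays: BI6Jx was -0.0370 without array 97, DBA/2J was -0.384 without array 34 and -0.0168 without array 68, and A/J was -0.164, -0.0703 and -0.0534 without arrays 86, 87 and 89. The mean was 0.523 ± 0.398 (SD, n = 6 strains), with an unadjusted p of 0.00876 and an adjusted p of 0.567 (limma). The exact two-sided sign-flip permutation test over strains gave p = 0.03125, the smallest that its 64 arrangements can give. This p was 0.09375 without array 97 or 34, 0.0625 without array 68, 86, 87 or 89, and 0.53125 with the unsettled arrays turned. Its highest value, 3.91, was on array 97 of BI6Jx, whose direction is unsettled. Without this array the mean response was 0.310, without all 3 arrays of unsettled direction it was 0.289, and with these arrays turned it was 0.130.

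Ctsg encodes cathepsin G, a serine protease of the azurophil granules of neutrophils. Its values spanned the widest range of the members. With irradiated RNA in Cy5 the 16 values ran from -5.32 to 3.88 with a median of 0.283, and 10 were positive. With irradiated RNA in Cy3 the 15 values ran from -1.19 to 1.82 with a median of -0.566, and 3 were positive. The highest values, 3.88, 3.85 and 3.75, came from arrays 35 and 36 of BalbxJ and array 87 of A/J, and the lowest from array 27 of C3H. The strain values were 0.542 in A/J, -0.439 in B6.C, 0.952 in BalbxJ, 1.68 in BI6Jx, -1.22 in C3H and 0.812 in DBA/2J. Their mean was 0.387 ± 1.05 (SD, n = 6 strains, adjusted p = 0.656 by limma), positive in 4 of 6 strains, and smaller than its spread. It became 0.226 without array 87 of A/J, 0.129 without the strain BI6Jx, 0.7096 without C3H and 0.0800 with the unsettled arrays turned. As deposited, with arrays not centred, it was 0.690.

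Epx encodes eosinophil peroxidase, which makes hypobromous acid from hydrogen peroxide and bromide. Its values followed the dye. In Cy5 they ran from -1.05 to 4.15 with a median of 1.78, and 15 of 19 were positive. In Cy3 they ran from -4.19 to 1.04 with a median of -1.25, and 3 of 19 were positive. In A/J the Cy5 values were 0.983, 2.40, 1.22 and 0.693, and the Cy3 values were -0.531, -1.54, -2.24 and -2.59. In BalbxJ the Cy5 values were 1.69, 1.78, 4.15 and 3.50, and the Cy3 values were -1.06, -1.38, -2.67 and -2.31. C3H gave 2.32, 1.96 and 1.64 in Cy5 and -1.16, -0.707 and -1.34 in Cy3, and DBA/2J gave 2.82 and 1.90 in Cy5 and -1.33 and -1.24 in Cy3. In these 4 strains the orientations did not overlap and lay on opposite sides of 0. How many of all probes did the same was not counted. BI6Jx had 3.63 and 3.52 in Cy5, and -4.19 and 0.986 in Cy3, the last on the unsettled array 97. In B6.C the values were -0.0035, -0.361, -1.05 and -0.173 in Cy5 and -0.175, 1.04, -1.25 and 0.622 in Cy3, so that its orientations overlapped around 0. Of these, -0.173 and 1.04 were on the unsettled arrays 53 and 50, and with both turned the dye difference of Epx in B6.C was 0.0760 in place of -0.228.

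With the orientations averaged, the response of Epx was -0.202 in A/J, -0.168 in B6.C, 0.461 in BalbxJ, 0.985 in BI6Jx, 0.453 in C3H and 0.537 in DBA/2J. The mean of 0.344 ± 0.455 (SD, n = 6 strains, adjusted p = 0.567 by limma) was positive in 4 of 6 strains. It dropped to 0.128 without array 97, to 0.0949 without all 3 unsettled arrays and to 0.216 without BI6Jx, and was 0.226 with the unsettled arrays turned and 0.560 without array 95 of BI6Jx.

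**Figure D1:**
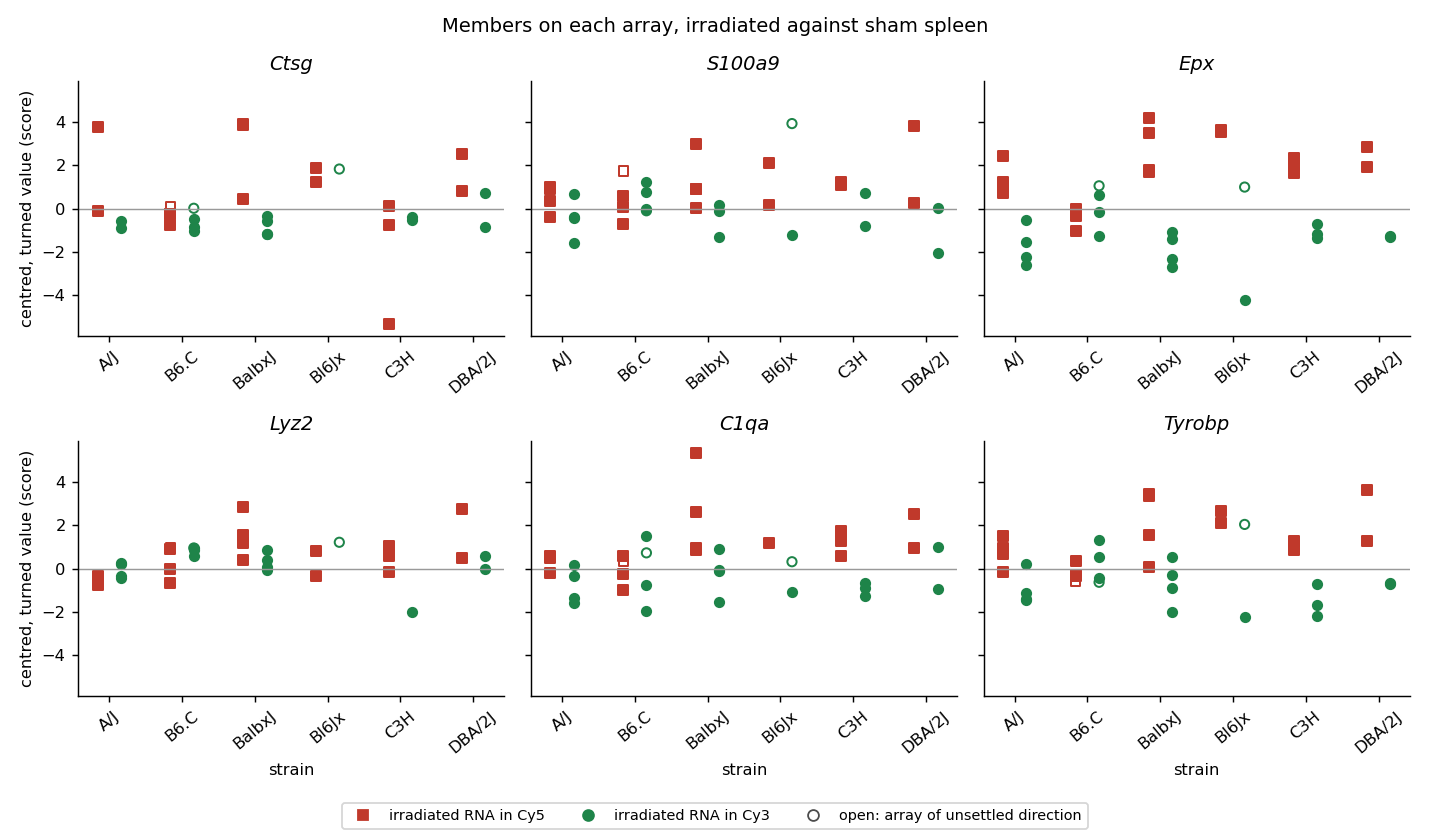
Centred, turned score of each of the 6 genes on each array (vertical axis), by strain (horizontal axis), as red squares for irradiated RNA in Cy5 and as green circles for irradiated RNA in Cy3. Open symbols mark arrays 50, 53 and 97, whose direction is not settled. Epx and Tyrobp lie mostly above 0 in Cy5 and below 0 in Cy3, with medians of 1.78 and -1.25 for Epx.

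Lyz2 encodes lysozyme M, which splits the cell wall of bacteria and is made by macrophages and neutrophils. Its values depended least on the dye, with a median of 0.478 in Cy5 (11 of 19 positive, from -0.741 to 2.83) and of 0.325 in Cy3 (11 of 16 positive, from -1.98 to 1.21). The strain values were -0.315 in A/J, 0.558 in B6.C, 0.897 in BalbxJ, 0.723 in BI6Jx, -0.749 in C3H and 0.946 in DBA/2J. In C3H and BI6Jx the Cy3 side rested on 1 array each, with -1.98 on array 28 and 1.21 on array 97. The mean response was 0.343 ± 0.706 (SD, n = 6 strains, adjusted p = 0.594 by limma), positive in 4 of 6 strains. It was 0.562 without C3H, 0.223 without DBA/2J, 0.53 as deposited, 0.580 with arrays scaled to a common spread and 0.0635 with the unsettled arrays turned. The gene has a close relative, Lyz1, and whether the probe tells both transcripts apart was not tested.

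C1qa encodes a chain of C1q, the first component of the classical complement pathway, which splenic macrophages secrete. In Cy5 its 17 values ran from -0.996 to 5.33 with a median of 0.838, and 14 were positive. In Cy3 its 19 values ran from -1.96 to 1.52 with a median of -0.683, and 6 were positive. The highest values were 5.33 and 2.60 on arrays 36 and 35 of BalbxJ and 2.49 on array 34 of DBA/2J. Strain values were -0.245 in A/J, -0.102 in B6.C, 1.11 in BalbxJ, 0.406 in BI6Jx, 0.122 in C3H and 0.877 in DBA/2J. The mean was 0.361 ± 0.542 (SD, n = 6 strains, adjusted p = 0.567 by limma), with 4 of 6 strains positive, and 0.212 without BalbxJ.

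Tyrobp encodes DAP12, an adaptor with an activation motif in its tail that passes on signals of Trem receptors and related receptors through the kinase Syk. Its values followed the dye like those of Epx, but its orientations overlapped in A/J and BalbxJ, where those of Epx did not. In Cy5 the values ran from -0.595 to 3.62 with a median of 1.05, and 15 of 19 were positive. In Cy3 they ran from -2.23 to 2.03 with a median of -0.705, and 5 of 19 were positive. C3H had 1.05, 1.29 and 0.858 in Cy5 and -0.705, -1.69 and -2.19 in Cy3, without overlap. DBA/2J had 3.62 and 1.26 in Cy5 and -0.715 and -0.648 in Cy3, also without overlap. With only 3 and 2 arrays in each orientation this is easily reached, and how many of all probes did the same was not counted. In A/J the lowest Cy5 value was -0.150 and the highest Cy3 value 0.230. In BalbxJ these were 0.0727 and 0.508, and the orientations of B6.C overlapped as well. BI6Jx had 2.66 and 2.07 in Cy5, and -2.23 and 2.03 in Cy3, the last again on array 97. Strain values were -0.0974 in A/J, -0.0183 in B6.C, 0.708 in BalbxJ, 1.13 in BI6Jx, -0.233 in C3H and 0.880 in DBA/2J. The mean was 0.396 ± 0.581 (SD, n = 6 strains, adjusted p = 0.567 by limma), positive in 3 of 6 strains, and dropped to 0.218 without array 97 and to 0.248 without BI6Jx.

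The dye difference of a gene is the part of its score that stays when the dyes are exchanged, taken per strain as the mean of both orientations before turning. It was on the positive side for 6 of 6 members, with a median of 0.651 and a range of 0.248 to 1.59, where all probes had a median of -0.0270 and a 95th percentile of 1.05. At an unadjusted p under 0.05, 4 of the 6 members passed, all on the positive side, beside 24.2% of all probes on either side and 20.1% on the positive side. After adjustment none passed, and neither did any probe (0%). Epx had the largest value of the members, 1.59 ± 0.989 (SD, n = 6 strains, adjusted p = 0.0825 by limma), and 98.7% of the tested probes lay below it. Tyrobp had 1.02 ± 0.648 (SD, n = 6 strains, adjusted p = 0.0825 by limma), and C1qa had 0.761 ± 0.451 with the same adjusted p from limma. The exact sign-flip permutation test over 6 strains gave p = 0.0625 for Epx, 0.0625 for Tyrobp and 0.03125 for C1qa, which was positive in all 6 strains. The p of C1qa is the smallest that this test can give, and it depended on single arrays of B6.C. There the dye difference of C1qa was 0.0187, but -0.0871, -0.0923, -0.288 and -0.0508 without arrays 48, 51, 52 and 53. How many of all probes had a positive dye difference in all 6 strains was not counted. S100a9 had 0.540 ± 0.597 (adjusted p = 0.193), Ctsg 0.525 ± 0.948 (adjusted p = 0.367) and Lyz2 0.248 ± 0.675 (adjusted p = 0.550), from the same limma fit over 6 strains. These 3 values moved with single arrays or strains: S100a9 had 0.327 without array 95 and 0.344 without DBA/2J, Lyz2 had 0.155 without array 34, 0.0516 without C3H and 0.395 without BI6Jx, and Ctsg had 0.275 without BalbxJ. With the unsettled arrays turned, Ctsg had 0.824 and Lyz2 0.449.

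The dye difference of the members was small in B6.C, where it ran from -0.270 to 0.148 with a median of -0.118, and of -0.0724 with the unsettled arrays turned. In the other strains the medians were 0.683 in A/J, 1.35 in BalbxJ, 0.338 in BI6Jx (1.76 with array 97 turned), 1.15 in C3H and 1.19 in DBA/2J. Epx had -0.228 in B6.C, against 1.52 in A/J, 2.32 in BalbxJ, 2.59 in BI6Jx, 1.52 in C3H and 1.82 in DBA/2J. Over all probes the median absolute dye difference was also lowest in B6.C, 0.188, against 0.313 in A/J and 0.702 in C3H. When B6.C was left out, Epx, Tyrobp and C1qa passed after adjustment (adjusted p = 0.0137, 0.0137 and 0.0209 by limma over 5 strains). So did 1887 of the 14253 probes tested in that setting. Epx, Tyrobp and C1qa also passed without C3H, with adjusted p-values of 0.0467, 0.0472 and 0.0482 by limma, beside 2041 of the 14782 probes tested there.

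**Figure D2:**
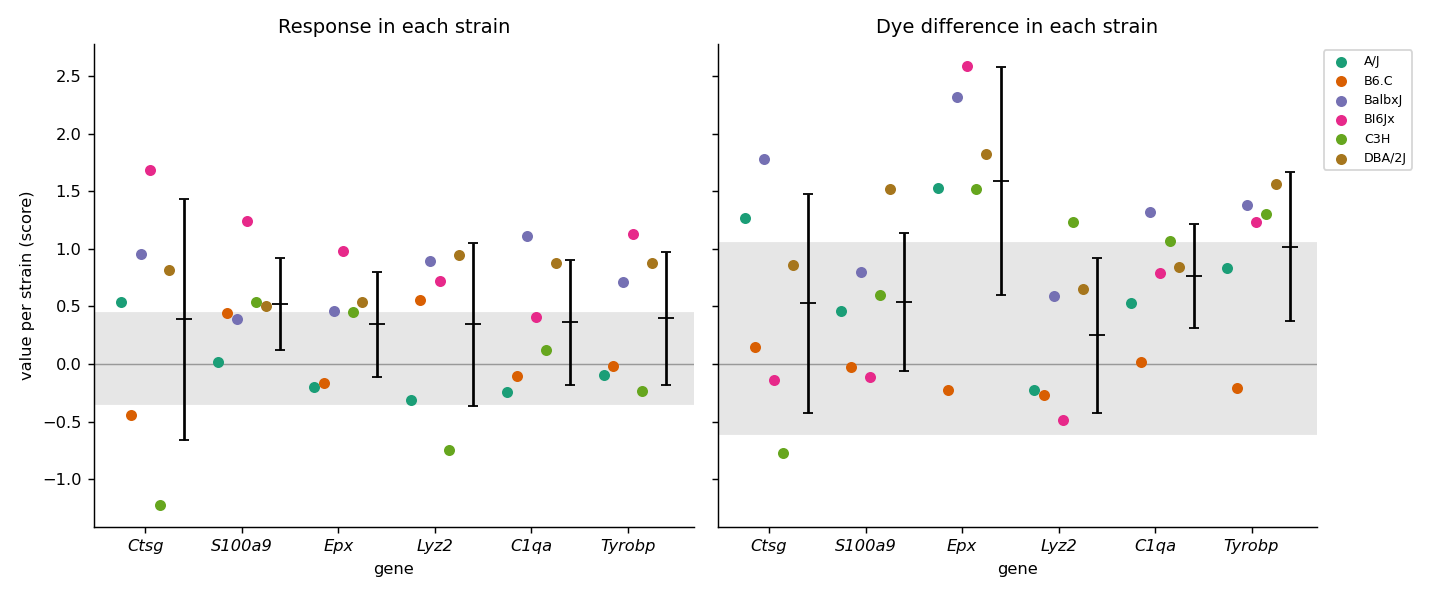
Response (left) and dye difference (right) of each gene in each strain, as scores, with 1 point per strain and a black bar for the mean and SD of the 6 strains. The grey band spans the 5th to 95th percentile of the means of all 14513 probes, -0.348 to 0.441 for the response. S100a9 has all 6 strains above 0 on the left, of which BI6Jx is at -0.0370 without the unsettled array 97, and B6.C lies near 0 for each gene on the right.

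**Figure D3:**
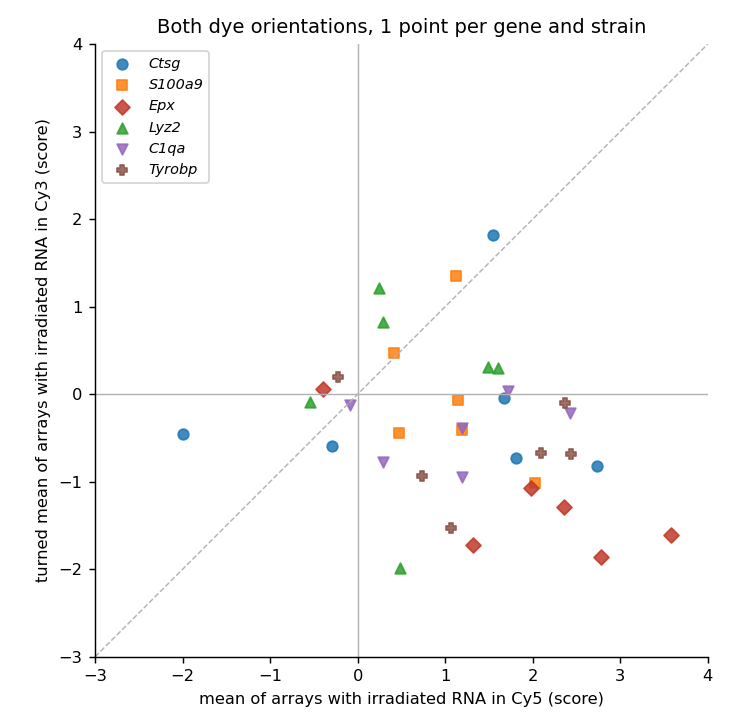
Mean of the arrays with irradiated RNA in Cy5 (horizontal axis, score) against the turned mean of the arrays with irradiated RNA in Cy3 (vertical axis, score), with 1 point for each gene and strain. On the dashed line both orientations give the same response. Epx lies in the lower right part in all strains but B6.C, where its means are -0.397 and 0.0602.

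The question of genetic background was addressed by the response of each strain. Over the 36 values of 6 members in 6 strains, 25 were positive. BalbxJ, BI6Jx and DBA/2J had 6 of 6 members on the positive side, with medians of 0.803, 1.06 and 0.845. The count in BI6Jx rested on array 97. With the unsettled arrays left out, 2 of the 4 members that still had a value in BI6Jx were positive (S100a9 -0.0370, Epx -0.310, C1qa 0.0577 and Tyrobp 0.0695), and with these arrays turned 3 of 6 were. In DBA/2J, S100a9 was -0.384 without array 34 and -0.0168 without array 68, and the other 5 members stayed positive without any 1 array, as did all 6 members in BalbxJ. C3H had 3 of 6, with a median of -0.0552 and values from -1.22 for Ctsg to 0.538 for S100a9. A/J and B6.C had 2 of 6 each, with medians of -0.150 and -0.0600. Over all probes the share on the positive side was 55.5% in BalbxJ, 46.4% in BI6Jx, 55.7% in DBA/2J, 44.1% in C3H, 44.4% in A/J and 43.7% in B6.C.

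A fit over all arrays with dye as a covariate gave each strain its own test. Arrays that repeat the same mice are not independent, which makes the p-values of this fit and of the F test below too small. Both use the same dye term for all strains, although the dye difference varied between strains. This adds to the spread and can make the p-values too large. The net effect was not tested. At an unadjusted p under 0.05, 4 of the 36 values passed. In BalbxJ these were Lyz2 at 0.897 ± 0.297 (SE) and C1qa at 1.11 ± 0.403 (SE), 2 of 6 members beside 8.29% of all probes. Lyz2 at 0.946 ± 0.420 (SE) passed in DBA/2J, beside 6.2% of probes, and Ctsg at -1.50 ± 0.673 (SE) in C3H, beside 12% of probes. No member passed in A/J, B6.C or BI6Jx, where 0.42%, 5.77% and 6.39% of probes did. After adjustment within a strain no member passed, with adjusted p-values of 0.517, 0.525, 0.774 and 0.367 for these 4 values by limma. The share of all probes that did was 0% in A/J, BalbxJ and DBA/2J, 0.186% in B6.C, 0.0345% in BI6Jx and 0.51% in C3H. When single arrays were left out, 3 of the 4 values no longer passed. Ctsg in C3H was -0.391 without array 27 and -1.53 without array 29 (unadjusted p = 0.514 and 0.0548 by limma), C1qa in BalbxJ was 0.594 without array 36, and Lyz2 in DBA/2J was 0.390 without array 34. Lyz2 in BalbxJ stayed between 0.637 and 1.01 when each array was left out, with unadjusted p-values up to 0.0389 in the same limma fit.

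Whether the 6 strains differed was asked with limma's F test on the strain coefficients. At an unadjusted p under 0.05, 1 of the 6 members passed, Lyz2 (F = 2.76, unadjusted p = 0.0350, adjusted p = 0.878), beside 5.5% of all probes. None of the members and none of the probes (0%) passed after adjustment. Within one orientation the test gave other results. There the dye difference, which varied between strains, is not separated from the response, and the fit has no dye covariate. What made the results differ was not tested. On the 19 Cy5 arrays, those with the irradiated RNA in Cy5, Epx passed (F = 10.5, adjusted p = 0.0104 by limma), as 4.15% of probes did, and its strain means ran from -0.397 in B6.C to 3.57 in BI6Jx. On the Cy3 arrays the F of Epx was 1.45 (adjusted p = 0.520 by limma), with strain means of -1.86 in BalbxJ to -1.07 in C3H and of 0.0602 in B6.C. The result in Cy5 was known before the members were chosen. On the Cy3 arrays Lyz2 passed (F = 9.12, adjusted p = 0.0149 by limma), as 6.22% of probes did. Its means were 0.828 in B6.C and 1.21 on the 1 array of BI6Jx, against -0.0863 in A/J and -1.98 on the 1 array of C3H. On the Cy5 arrays the F of Lyz2 was 3.29 (adjusted p = 0.159 by limma).

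Across arrays the members deviated in the same direction. The 15 pairs of members had Pearson r between 0.402 and 0.862 with a median of 0.613, over 29 to 38 arrays that share mice, dyes and strains. Before turning, the range was 0.367 to 0.780 with a median of 0.623, close to the values after turning. Epx and Tyrobp were the closest pair (r = 0.862 over 38 arrays), and Epx and Lyz2 the loosest (r = 0.402 over 35 arrays). Similar values were common over all probes, however, with 95th percentiles of r of 0.834 for Epx, 0.871 for Tyrobp, 0.824 for C1qa, 0.717 for S100a9, 0.670 for Lyz2 and 0.661 for Ctsg. The genes most like each member were no granulocyte or macrophage genes of the lists used here. Tuft1 and Cyp2c40 were closest to Tyrobp (r = 0.978 and 0.977), Mnt, a transcriptional repressor of the Myc network, and Klf2, a transcription factor of quiescent lymphocytes and endothelium, to Epx (r = 0.977 and 0.969), and the ribosomal protein gene Rpl7a to C1qa (r = 0.968). For Lyz2 these were Chga and Rpl3 (r = 0.848 and 0.845), for S100a9 Atp6v1e2 and Rplp2 (r = 0.847 and 0.845), and for Ctsg Adat2 and Kcna7 (r = 0.858 and 0.852), each over at least 30 arrays.

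**Figure D4:**
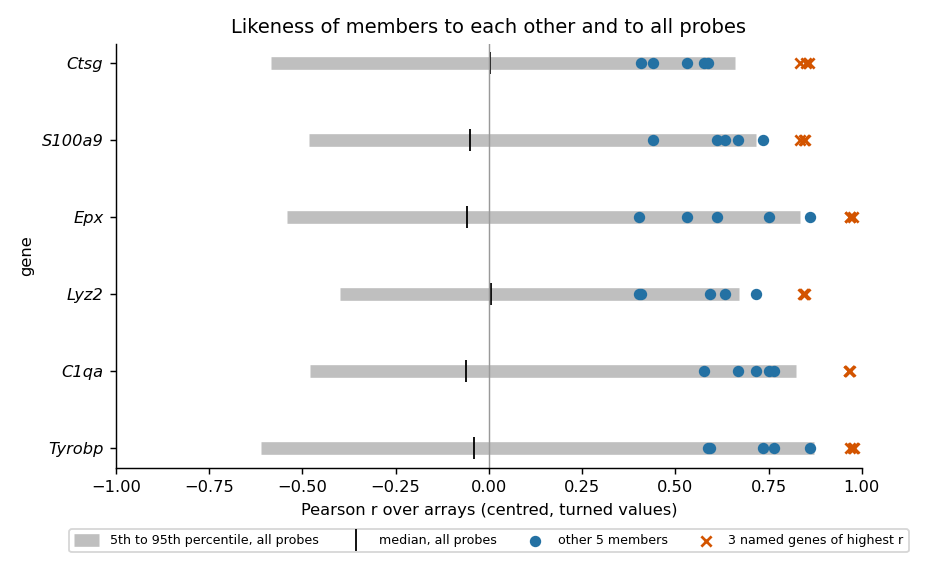
Pearson r over arrays of each gene (vertical axis) with the other 5 members (blue points), with the 3 named genes of highest r (orange crosses) and with all probes of at least 30 shared arrays (grey bar, 5th to 95th percentile, and black line, median). The values between members, 0.402 to 0.862, lie mostly within the upper part of the grey bars.

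Other genes of the same cells and pathways were taken from 9 lists, of which 83 genes passed the filter, members included, as in the counts of each list unless stated. For the response, 47 of the 83 genes were positive, with a median of 0.0384, and 7 (8.43%) passed at an unadjusted p under 0.05, close to the 8.21% of all probes. None passed after adjustment. Of the 77 genes that were no members, 41 were positive, with a median of 0.0227. For the dye difference the median was 0.0474, and 29 of the 83 (34.9%) had an unadjusted p under 0.05, of which 22 were positive, beside 24.2% of all probes.

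Among neutrophil granule proteins, 6 of 9 were positive with a median of 0.116, and none passed. The gene with the largest value was Serpinb1a, an inhibitor of granule proteases, at 0.666 ± 1.36 (SD, n = 6 strains), and the collagenase Mmp8 had 0.278 ± 0.414 and the elastase Elane 0.146 ± 0.379. Of the S100 proteins and surface receptors of neutrophils, 6 of 10 were positive with a median of 0.0666. The formyl peptide receptors Fpr2 and Fpr1, which sense bacterial peptides, had 0.482 ± 0.757 and 0.245 ± 0.299, and Trem1, a receptor that signals through Tyrobp, had 0.260 ± 0.567 (SD, n = 6 strains each). Fpr2 also had a dye difference of 1.81, on the scale on which Epx had 1.59.

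Of the genes of eosinophils, basophils and mast cells, 9 of 12 were positive with a median of 0.0806. The basophil protease Mcpt8 had 0.565 ± 0.682 (SD, n = 6 strains, unadjusted p = 0.0358 and adjusted p = 0.567 by limma), with values on 25 arrays. The transcription factor Gata2 had -0.263 ± 0.232 and the mast cell protease Mcpt4 0.164 ± 0.220. In the list of lysozymes and lysosomal genes, 4 of 7 were positive with a median of 0.137. Slc11a1, a metal transporter of the phagosome, had 0.446 ± 0.480 (SD, n = 6 strains, unadjusted p = 0.0325, adjusted p = 0.567 by limma). The protease gene Ctss had -0.354 ± 0.297 (SD, n = 6 strains, unadjusted p = 0.0280, adjusted p = 0.567 by limma), on the other side from Lyz2, and the lysosomal membrane gene Lamp1 had 0.315 ± 0.507.

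The receptors of macrophages and monocytes had 5 of 13 positive with a median of -0.0461, and none passed. Tlr2, a sensor of bacterial lipoproteins, had 0.403 ± 0.532, Axl, a receptor for the uptake of apoptotic cells, had 0.327 ± 0.643, and Spic, a transcription factor of red pulp macrophages, had 0.191 ± 0.383 (SD, n = 6 strains each). Of the early complement genes 6 of 8 were positive with a median of 0.173. C2 had 0.4997 ± 0.638 and C4b 0.390 ± 0.414 (SD, n = 6 strains, unadjusted p = 0.0470 and 0.0381, adjusted p = 0.567 for both by limma), and both act just after C1q in the classical pathway. C1qc, whose protein joins that of C1qa in 1 complex, had -0.0861 ± 0.233 and was positive in 3 of 6 strains. The receptor gene C5ar1 had -0.208 ± 0.235.

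In the list of Tyrobp, other adaptors with the same kind of motif, Fc receptors, and the kinases and phosphatases that act with them, 6 of the 15 genes other than Tyrobp were positive, with a median of -0.0392. Syk, the kinase that binds its phosphorylated motif, had 0.302 ± 0.288 (SD, n = 6 strains, unadjusted p = 0.0498, adjusted p = 0.567 by limma), the Fc receptor gene Fcgr3 had 0.256 ± 0.184 and was positive in all 6 strains, and the adaptor gene Lcp2 had 0.385 ± 0.557. On the negative side, Trem3, a Trem receptor, had -0.248 ± 0.322 and was positive in 0 of 6 strains, and the kinase gene Btk had -0.346 ± 0.590. Fcer1g, an adaptor of the same kind as Tyrobp, had 0.197 ± 0.618. The oxidase genes Cybb and Ncf4 had -0.169 ± 0.807 and -0.173 ± 0.434. Of the myeloid transcription factors, growth factors and their receptors 4 of 6 were positive with a median of 0.0452, and Il3ra, a receptor chain for interleukin-3, had 0.293 ± 0.459, Il3 itself 0.197 ± 0.528 and the repressor gene Gfi1 -0.130 ± 0.462.

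**Figure D5:**
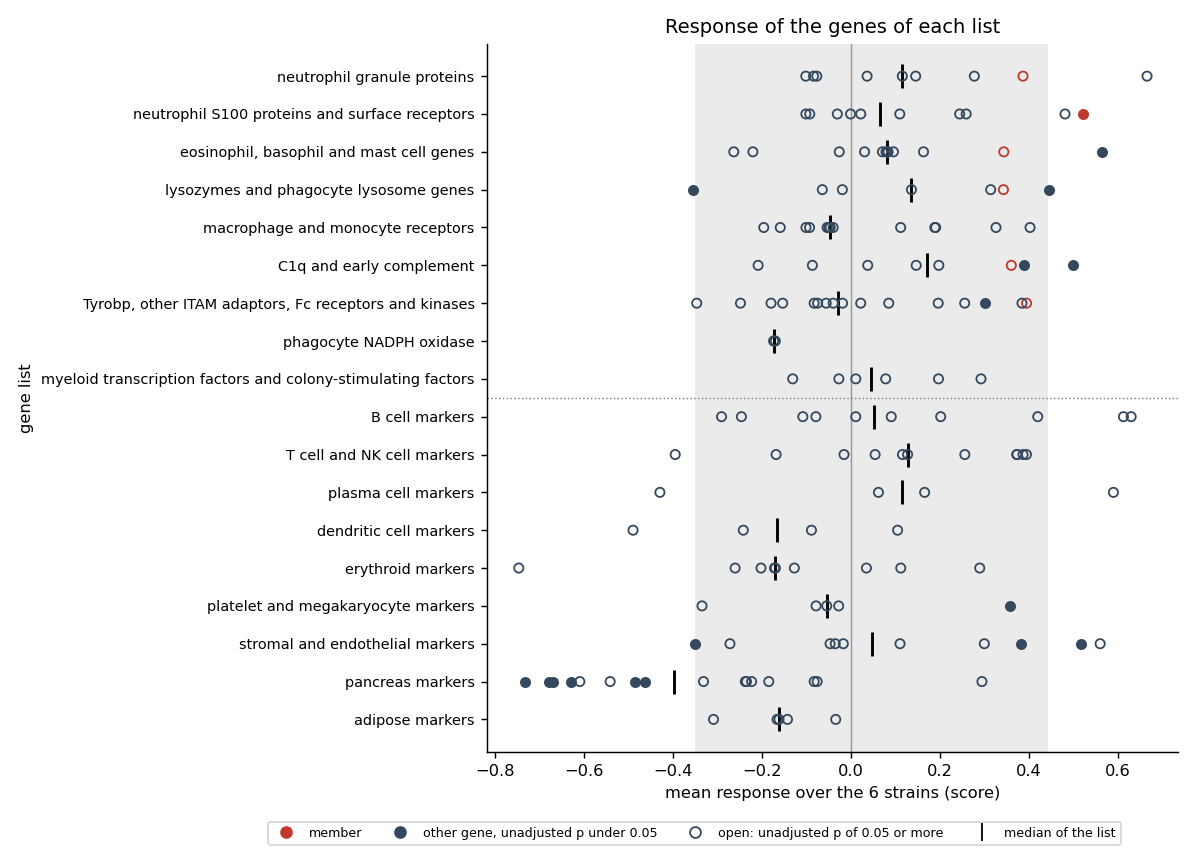
Mean response over the 6 strains (horizontal axis, score) of each tested gene of 9 granulocyte and macrophage lists, above the dotted line, and 9 lists of other cell types, below it. Members are red, filled symbols have an unadjusted p under 0.05, black lines are list medians and the grey band spans the 5th to 95th percentile of all probes. The pancreas markers lie at a median of -0.396 and the members between 0.343 and 0.523.

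Markers of other cells were set beside the members. The markers of pancreas, a neighbour of the spleen, had 15 of 16 genes on the negative side with a median of -0.396. Of the 16 genes, 6 passed at an unadjusted p under 0.05, all negative, among them Clps (-0.485 ± 0.418, SD, n = 6 strains). Over all 14513 probes, 8.21% passed on either side, with 572 probes on the negative side. The median of the pancreas list on an array had r between -0.136 and 0.0679 with the members. The list median of T cell and natural killer cell markers had r of 0.677 for Ctsg, 0.732 for S100a9, 0.771 for Epx, 0.704 for Lyz2, 0.854 for C1qa and 0.845 for Tyrobp over 31 to 38 arrays. This median ran from -1.48 to 3.17, and 8 of the 11 genes were positive and none passed, with Cd6 at 0.388 ± 0.478. The dye difference of these genes had a median of 0.522, with 9 of 11 positive, against a median of 0.0449 for B cell markers. A dye difference stays in the values of single arrays, and its part in these r was not tested. B cell markers had 6 of 10 positive with a median of 0.0513, Cd22 at -0.246 ± 0.162 (SD, n = 6 strains), and r of 0.369 to 0.751 with the members. Stromal and endothelial markers had 5 of 10 positive and r of 0.204 to 0.775 with the members, and 3 of them passed at an unadjusted p under 0.05, of which 2 were positive. The third was Acta2, the actin of smooth muscle, at -0.351 ± 0.186 (SD, n = 6 strains). The part of these cell types in the values of the members was not tested.

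The smaller lists had 3 of 4 plasma cell genes, 1 of 4 dendritic cell genes, 3 of 9 erythroid genes, 1 of 5 platelet genes and 0 of 5 adipose genes on the positive side. Among the plasma cell, dendritic cell, platelet and adipose genes, those with the smallest p were Xbp1 at -0.429, Cst3 at -0.489, Gp9 at 0.358 and Car3 at -0.308. Of these, Gp9 alone passed at an unadjusted p under 0.05 (limma), and its adjusted p was 0.567. With the members, the list medians had r of -0.656 to -0.334 for adipose, -0.440 to -0.117 for platelet and -0.535 to -0.0249 for dendritic cell genes. For erythroid genes r was -0.383 to 0.0991, and for plasma cell genes -0.105 to 0.0620. The r of list medians with all other probes was not computed.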

How the data were processed

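Spleen RNA was measured on 38 2-colour long oligonucleotide arrays. According to the methods of the study, spots of low expression or poor quality were removed, local background was subtracted and arrays were normalized by Lowess. The authors deposited 1 signed score per spot and array, from -29.5 to 31.5, without intensities, and whether Lowess precedes these values is not given in the sources used here. Control spots (864 blank, 275 buffer and 96 Alien of 23232) were not used, and spots of 1 probe were averaged. Probes were named by RefSeq accession through a table of mouse genes (GRCm38.p6), used for names only: 6518 probes had 1 symbol and 15100 none.

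Tests used limma 3.58.1 (R 4.3.3, lmFit and eBayes) on centred values, with Benjamini-Hochberg adjusted p under 0.05. The labels do not say which arrays repeat the same mice, so the strain was the unit. Sign-flip tests were exact and two-sided. The number of arrays limits the precision. The test scripts were tested on simulated data. The members and gene lists were chosen with earlier results of these data known. The genes named beside the members are up to 3 of each granulocyte and macrophage list and 1 of each other list with the smallest p for the response, and the 3 genes most like each member over arrays. The result of 1 gene under this rule is not reported here. C1qc, Fcer1g, Trem3, Btk and the dye value of Fpr2 were given for their role or size after values were seen. Alternatives were no centring, scaling by the median absolute deviation, other filters, robust spread, weights, arrays as units, turned or omitted unsettled arrays, and each array or strain left out. Leaving out or turning arrays within a strain or orientation was chosen after seeing the data.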

Additional observations from a re-analysis of the deposited data

Results flagged for a closer look

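Of 33 sets of 4 to 8 arrays (1 gene in 1 strain), 4 held an array that stood far from the rest by Dixon's criterion. Chance alone meets this criterion in about 1 of 20 sets of independent values from 1 common distribution. The count of 4 cannot be compared with that rate. The sets pool both orientations, which differ by the dye difference, and arrays that repeat the same mice. Ctsg was 3.75 on array 87 of A/J, where the other 3 arrays with a value lay between -0.894 and -0.120. Ctsg was -5.32 on array 27 of C3H, with the other 4 arrays between -0.770 and 0.108. S100a9 was -0.822 on array 28 of C3H, with the other 4 between 0.694 and 1.23. Tyrobp was -2.23 on array 95 of BI6Jx, with the other 3 between 2.03 and 2.66. The 2.03 is from array 97, whose direction is unsettled, and with that array turned array 95 no longer stood apart. On array 95 Epx had its lowest value of all arrays as well, -4.19. What sets these spots apart was not tested.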

How the results depend on the processing

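The 949 alternatives, over 55 settings, concerned the members' means over strains, their F values and 4 fitted strain values. None changed sign, which an F value cannot do. Other strain values, of all members but Lyz2, did change sign without 1 array. Epx in BI6Jx, for example, was 0.985 with all arrays and -0.310 without array 97. For Lyz2 this could not be tested for array 28 in C3H and array 97 in BI6Jx, the only Cy3 arrays there with a value. With array 97 turned, Lyz2 in BI6Jx was -0.484 in place of 0.723. Of the 949 alternatives, 936 stayed on the same side of the threshold. The other 13 passed after adjustment: the dye differences of Epx and Tyrobp with probes valued on all 38 arrays, those of Epx, Tyrobp and C1qa with arrays as units or without B6.C or C3H, and the F tests of Epx in Cy5 and of Lyz2 in Cy3. When arrays of these orientations were left out in turn, the adjusted p ran from 0.00501 to 0.0400 for Epx and, over the 14 such arrays that held a value of Lyz2 and could be left out, from 0.0178 to 0.0321 for Lyz2. Its lowest and highest values in Cy3, on arrays 28 and 97, could not be left out because their strains then had no value, so the result was not tested without them. The probes passing for the response were 0, but 31 as deposited, and 0 when each array or strain was left out. For the dye difference they were 0, but 625 of 2830 with values on all 38 arrays and 4497 of 14513 with arrays as units. When strains or arrays were left out they were 0 to 2041, with 1887 of 14253 without B6.C and 2041 of 14782 without C3H. For the difference between strains they were 0, but 1 with values on all 38 arrays, 602 in Cy5 alone, 902 in Cy3 alone and 0 to 5 when arrays were left out. Within B6.C the count was 27, but 0 as deposited and 0 with the unsettled arrays turned. In BI6Jx it was 5, but 2 and 0, and in C3H 74, but 0 as deposited. The cause of these changes was not tested. Ctsg and Lyz2 could not be fitted without the unsettled arrays, since BI6Jx then had no value in Cy3, and 4 members had no value on some arrays. No paired analysis was possible because the labels do not say which arrays are dye swaps of one pair of mice. The unknown scale and direction, the dim spots removed and the dye difference limit all values.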
